A study of Mus musculus with 4 samples.

Results

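Enzymes that make sterols and fatty acids, together with their regulators, were read here as a module of 32 genes given as a list of names. Non-control probes were assigned to a member through the gene symbol, or a synonym of it, that belongs to the accession in the scanner files. The members had 54 probes, of which all were bright enough to be tested, and the whole array covered 18224 genes with a named probe, 12393 of them tested. The list holds 17 enzymes of sterol synthesis, 9 enzymes of fatty acid synthesis, elongation and desaturation, 5 regulators of the SREBP transcription factors and the sterol carrier Stard4.

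Cholesterol is built from acetyl-CoA, first through mevalonate to farnesyl diphosphate and then through squalene and lanosterol. Fatty acids start from the same acetyl-CoA and are elongated and desaturated in the endoplasmic reticulum. Both routes are governed by the SREBP factors, which Scap carries to the Golgi for cleavage when sterols are low and which the Insig proteins hold back when sterols are plentiful. In smooth muscle, as in most cells, this control sets how much membrane lipid a cell makes for itself.

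Microvascular smooth muscle cells of male C57BL6 mice, all labelled as Rap1a knockout, carried either an empty shuttle vector or a shuttle vector named RapCA, which the labels leave unexplained. Going by the title of the series, knockout against rescue, the comparison asks how transcripts differ once the RapCA vector is present. Cells were grown in medium with 10% serum, exposed to virus overnight without serum, and left for 48 hours in 0.5% serum before total RNA was taken. Each of 4 two-colour arrays, called biological replicates 1 to 4 in the labels, paired 1 RNA of each kind, always with the vector RNA in Cy5 and the RapCA RNA in Cy3. The dyes were not exchanged on any array, so dye and condition cannot be told apart, and the labels do not say whether the replicates were separate cultures or animals.

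Below, the RapCA channel and the vector channel are named as the labels have them, and every ratio is the log2 of the first over the second, so that a positive value stands for more signal under RapCA. The probe for Rap1a, the gene named as deleted in both kinds of cell, was above background in both channels of all 4 arrays. Its ratios were -0.46, -1.02, -1.31 and -1.47 on replicates 1 to 4 (mean -1.06 ± 0.44 SD, n = 4; limma adjusted p = 0.00204), lower in the RapCA channel on every array. This opposes what the labels lead one to look for, and whether the probe covers the deleted part, or what the vector carries, is not known here. All directions rest on the dye labels alone. Between 57.95% and 63.12% of probes were above background in the RapCA channel. In the vector channel the share was 51.59% on replicate 1 and 60.32% to 62.08% on the others, and across 23485 probes replicate 1 had correlations of 0.69 to 0.78 with the rest, where replicates 2 to 4 had 0.93 to 0.98 among themselves.

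Summed levels of cell type markers were set beside these ratios. Of 10 smooth muscle markers, 8 exceeded background in 1 channel or both on all arrays, and Des and Myocd were not above it on any array. The summed linear level of the smooth muscle markers was 440500 to 467300 in the RapCA channel and 183000 to 240800 in the vector channel. Of the 8, 5 were called higher (Acta2, Tagln, Lmod1, Mylk and Myl9) and Myh11, Cnn1 and Smtn were not called, at 0.13, 0.07 and 0.08. Fibroblast markers (4 of 5 above background, Lum on no array) summed to 37680 to 42450 against 6640 to 9717. Dpt, Scara5 and Mfap5 were called higher, at 2.76, 2.28 and 2.14. Pdgfra was not called, at 0.17 on its brightest probe and 0.12 on the other, so the sum does not describe every marker of the set. For endothelial markers (2 of 6, with Cdh5, Emcn, Pecam1 and Tie1 on no array) the sums were 640.3 to 654.5 against 574.8 to 743.1, although Kdr was called lower at -0.75 and Tek higher at 1.16. For macrophage markers (2 of the 4 with a probe, with Adgre1 and Ptprc on no array) they were 577 to 717.3 against 527.1 to 775.6. Adipocyte markers, whose tissue makes fatty acids in quantity, were above background for 1 of 6, with Adipoq, Lep and Plin1 on no array. Their sum was 828.7 to 946.1 against 1642 to 1784. The marker above background was Fabp4, called lower at -1.44, and no other adipocyte marker was bright enough to be tested. The difference between these sums therefore rests on Fabp4 and does not describe the marker set. The part of these differences in the results for lipid synthesis was not tested, and in RNA from a whole culture fewer cells of a type and less RNA per cell cannot be told apart.

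Most members were higher in the RapCA channel. Read from the brightest probe of each gene, 22 of 32 members (68.8%) were higher at a limma adjusted p under 0.05, while 28.9% of all 12393 genes were. In that test 0 members were lower, also at an unadjusted p under 0.05, against 24.9% of all genes. A difference of at least 2-fold was called higher for 15 members, against 9.17% of all genes. The median member stood at 0.73, with medians of 0.70, 0.63, 0.74 and 0.82 on replicates 1 to 4, while the median of all genes was 0.02. On all 4 arrays 25 members (78.1%) lay above 0, against 33.3% of all genes. The normalised levels of the channels did not overlap over the 4 arrays for 20 members, among them Elovl5, which was not called. The same share was not counted over all genes, so this number has no background to be read against.

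These counts depended on how the arrays were centred. When arrays were centred on their medians, and no loess fit followed the intensity, 11 members were higher and 1, Fasn, was lower, and the median member stood at 0.42. The median of all genes then stood at -0.17, 12.5% of genes were called higher and 20% lower, and of all probes called 40.1% were higher, against 53.3% with loess. The median member lay 0.59 above the median gene with centring and 0.71 above it with loess. The members that were called higher with loess and not with centring were Hmgcs1, Fdft1, Sqle, Lss, Cyp51, Acly, Elovl6, Scd1, Fads1, Insig2 and Scap. The other 11 called members, Mvk, Pmvk, Mvd, Fdps, Nsdhl, Hsd17b7, Dhcr7, Scd2, Fads2, Srebf1 and Srebf2, were called under every one of 16 other settings. Of these, Pmvk, Mvd, Fdps, Dhcr7 and Srebf1 moved to 0.64, 0.59, 0.58, 0.62 and 0.57 with centring. Not all 16 settings are separate checks. The separate-channel fit with the array as block repeats the ratio fit, and the series table holds the scanner software's ratios.

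**Figure D1:**
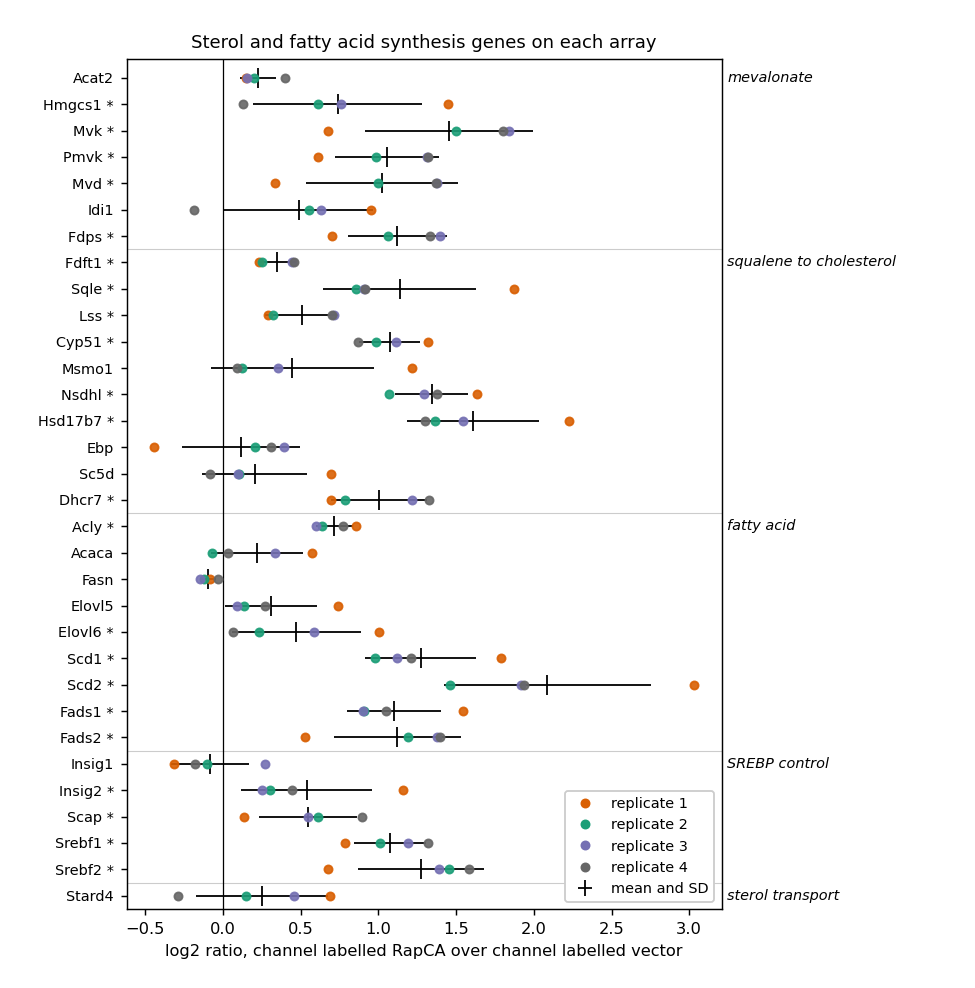
Log2 ratio of the RapCA channel over the vector channel (horizontal axis) for the brightest probe of each of the 32 genes, with 1 point per array and the mean and SD of 4 arrays in black; an asterisk marks genes called at a limma adjusted p under 0.05. The 22 called genes lie to the right of 0, led by Scd2 at 2.09, and replicate 1 is at the end of the range for most genes; with median centring in place of loess the means of Fdft1, Msmo1, Ebp and Sc5d fall below 0.

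Promoter windows are shown for 6 members to set the sequence beside the response: Hmgcs1, an early enzyme and the 1 matched member with the searched sterol element; Mvk, Nsdhl, Hsd17b7 and Fads2, whose call held in every setting; and Insig1, which was not called. RefSeq promoter windows on mouse build GRCm38.p6, 250 bases before to 50 after each start site, were matched to 25 of the 32 members by symbol, as 33 windows. Each line gives the 150 bases before a start site, 5′ to 3′ on the gene's strand, and capitals mark a searched motif on either strand. The motifs were the sterol regulatory element TCACNCCAC, the NF-Y box CCAAT (read as ATTGG on the opposite strand) and the E-box CACGTG, and none overlapped another in these windows. The windows are chr13:119690201-119690350 (+) for Hmgcs1, chr5:114444119-114444268 (+) for Mvk, chrX:72918371-72918520 (+) for Nsdhl, chr1:169969206-169969355 (-) for Hsd17b7, chr19:10101504-10101653 (-) for Fads2 and chr5:28071262-28071411 (+) for Insig1.
Hmgcs1: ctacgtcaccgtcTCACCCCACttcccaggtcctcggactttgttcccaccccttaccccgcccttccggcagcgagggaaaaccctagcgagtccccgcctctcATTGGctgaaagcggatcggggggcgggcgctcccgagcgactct
Mvk: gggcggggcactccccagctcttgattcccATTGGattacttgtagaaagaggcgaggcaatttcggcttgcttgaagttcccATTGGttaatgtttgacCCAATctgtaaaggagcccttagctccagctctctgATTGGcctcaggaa
Nsdhl: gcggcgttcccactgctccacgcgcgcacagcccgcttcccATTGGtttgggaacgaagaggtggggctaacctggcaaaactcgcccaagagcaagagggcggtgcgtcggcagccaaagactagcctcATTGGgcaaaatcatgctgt
Hsd17b7: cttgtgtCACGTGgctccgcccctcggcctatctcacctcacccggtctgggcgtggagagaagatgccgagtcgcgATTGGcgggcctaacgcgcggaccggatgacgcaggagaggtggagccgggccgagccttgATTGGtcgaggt
Fads2: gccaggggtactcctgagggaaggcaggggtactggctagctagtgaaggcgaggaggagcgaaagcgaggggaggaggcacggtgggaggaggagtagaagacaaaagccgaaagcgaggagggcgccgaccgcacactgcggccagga
Insig1: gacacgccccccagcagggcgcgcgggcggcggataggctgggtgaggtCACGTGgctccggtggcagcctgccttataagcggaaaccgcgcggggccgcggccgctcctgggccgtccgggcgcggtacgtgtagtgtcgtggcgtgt

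In the 150 bases shown, the Hmgcs1 promoter held the sterol element 137 bases before the start site, with an NF-Y box downstream of it. Mvk held 4 NF-Y boxes and Nsdhl 2, Hsd17b7 held 2 with an E-box, Insig1 held an E-box alone and Fads2 held none of the 3 motifs. Over the full windows the sterol element was found in 1 of 25 members (4.0%), against 1.44% of all 27025 genes with a window. NF-Y boxes were found in 20 of 25 members (80.0%) against 41.1% of all genes, and per window in 63.6% of 33 against 37.4% of all 32851. They did not follow the call. Idi1, Msmo1, Ebp, Sc5d, Fasn, Elovl5 and Insig1 held NF-Y boxes in the full windows and were not called. Acat2 and Acaca, also not called, held none, and neither did the called members Elovl6, Fads2 and Scap. E-boxes were found in 6 members (24.0%), namely Dhcr7, Elovl5, Hsd17b7, Insig1, Sc5d and Scap, against 8.09% of all genes. A match describes the letters of the window and not a bound site, and genes with several start sites have several windows.

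In the mevalonate branch, 5 of 7 enzymes were higher in the RapCA channel, with a median of 1.02. Mvk, the kinase that phosphorylates mevalonate, had ratios of 0.68, 1.50, 1.84 and 1.80 on replicates 1 to 4. Its levels ran from 12.23 to 12.44 in the RapCA channel and from 10.45 to 11.77 in the vector channel, with no overlap and the highest vector level on replicate 1. The mean was 1.45 ± 0.54 (SD, n = 4), a fold of 2.74 (limma adjusted p = 0.00100), and a second probe gave 1.31 ± 0.67. Mvk is one of the members whose promoter is shown above, with its run of NF-Y boxes.

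Other enzymes of this branch also had their lowest ratio on replicate 1. Pmvk, the kinase that adds the second phosphate, had ratios of 0.61, 0.98, 1.31 and 1.32 (mean 1.06 ± 0.34, fold 2.08, adjusted p = 0.000966). Mvd, which decarboxylates that product to isopentenyl diphosphate, had 0.34, 0.998, 1.38 and 1.37 (mean 1.02 ± 0.49, fold 2.03, adjusted p = 0.00340). Fdps, which joins isoprene units to farnesyl diphosphate, had 0.70, 1.06, 1.39 and 1.33 (mean 1.12 ± 0.32, fold 2.18, adjusted p = 0.000638). For Pmvk, Mvd and Fdps, as for Mvk, the levels of the channels did not overlap.

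Hmgcs1, the synthase that forms HMG-CoA, showed the opposite order, with ratios of 1.45, 0.61, 0.76 and 0.13 and the largest value on replicate 1. Its mean of 0.74 ± 0.55 passed the test (adjusted p = 0.0191), but its call was lost without replicate 3 and its levels overlapped, at 13.98 to 14.77 in the RapCA channel against 12.56 to 14.16 in the other. A second Hmgcs1 probe varied less, at 0.62 ± 0.16 (adjusted p = 0.00284), and its levels did not overlap. With median centring neither Hmgcs1 probe was called, at 0.30 and 0.48. The enzymes Acat2 and Idi1 did not pass. Acat2, which joins acetyl-CoA units to acetoacetyl-CoA, had ratios of 0.15, 0.20, 0.15 and 0.40 (mean 0.22, 95% interval -0.01 to 0.46, adjusted p = 0.103), and its signal may include that of the near-identical Acat3. Idi1, the isomerase of isopentenyl diphosphate, had 0.95, 0.55, 0.63 and -0.19 (mean 0.49, interval 0.06 to 0.91, adjusted p = 0.0597), with replicate 4 below 0 on the second probe as well.

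Of the 10 enzymes from squalene to cholesterol, 7 were higher, with a median of 0.76. Hsd17b7, a ketoreductase in the removal of methyl groups from the sterol ring, had ratios of 2.23, 1.37, 1.54 and 1.30. Levels of 13.54 to 13.82 in the RapCA channel stood clear of 11.34 to 12.46 in the vector channel. The mean was 1.61 ± 0.43, a fold of 3.05 (adjusted p = 0.000302), with 1.51 ± 0.34 on a second probe. Nsdhl, the dehydrogenase that acts just before it, had 1.63, 1.06, 1.29 and 1.38 (mean 1.34 ± 0.24, fold 2.53, adjusted p = 0.000166). All 3 Nsdhl probes were called, the other 2 at 1.02 and 1.01. With median centring the brightest kept its call (limma adjusted p = 0.0359) and the other 2 did not, at 0.78 and 0.77. On the brightest probe of both genes every ratio was above 1.

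Sqle, the epoxidase that opens the way to ring closure, had ratios of 1.87, 0.85, 0.91 and 0.91, with replicate 1 well above the rest. The mean of 1.14 ± 0.49 passed (fold 2.20, adjusted p = 0.00216). Cyp51, the lanosterol demethylase, had 1.32, 0.99, 1.11 and 0.87 on its brightest probe (mean 1.07 ± 0.19, fold 2.10, adjusted p = 0.000313). Its other probes differed, as one was called at 0.64 ± 0.16 and one was not, at 0.28 ± 0.43 (adjusted p = 0.202). With median centring no Cyp51 probe was called. Dhcr7, the reductase that yields cholesterol in the last step, had 0.69, 0.79, 1.21 and 1.32 (mean 1.004 ± 0.310, fold 2.01, adjusted p = 0.000990), and 1.22 ± 0.26 on its second probe. For Sqle, Dhcr7 and the brightest Cyp51 probe the levels did not overlap.

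Smaller differences were seen at Fdft1 and Lss. Fdft1, squalene synthase, had ratios of 0.23, 0.25, 0.45 and 0.45 and passed at a mean of 0.35 ± 0.12 (adjusted p = 0.0248), but the mean of this probe turned to -0.12 with median centring. Its call was also lost without replicate 2, 3 or 4. A second Fdft1 probe was called at 0.53 ± 0.19 (adjusted p = 0.00662) and stayed higher with median centring, at 0.47. Lss, which closes squalene epoxide to lanosterol, had 0.29, 0.32, 0.72 and 0.70 (mean 0.51 ± 0.23, adjusted p = 0.0109), with 0.77 ± 0.29 on a second probe. The call of its brightest probe was lost without replicate 3.

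The 3 enzymes of this branch that did not pass were Msmo1, Ebp and Sc5d. Msmo1, the methyl oxidase that works with Nsdhl and Hsd17b7, had ratios of 1.22, 0.12, 0.35 and 0.09, so its mean of 0.45 ± 0.53 (interval -0.01 to 0.90, adjusted p = 0.0954) came mostly from replicate 1. Sc5d, a sterol desaturase, had 0.70, 0.10, 0.10 and -0.08 (mean 0.20, interval -0.14 to 0.54, adjusted p = 0.279). Ebp, the isomerase of the ring double bond, had -0.45, 0.20, 0.39 and 0.31 (mean 0.12, interval -0.25 to 0.48, adjusted p = 0.569). In all 3 the levels of the channels overlapped, and with median centring their means were -0.16, -0.18 and -0.39.

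**Figure D2:**
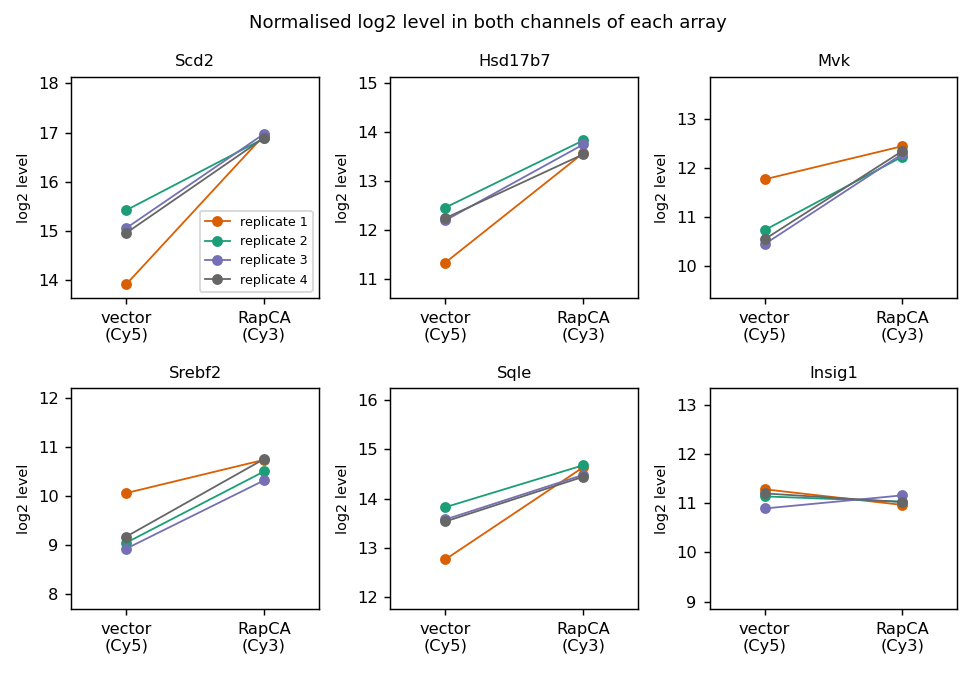
Normalised log2 level (vertical axis) of 6 genes in the vector channel and the RapCA channel, with 1 line per array. For Scd2, Hsd17b7, Mvk, Srebf2 and Sqle every RapCA point is above every vector point and replicate 1 is set apart in the vector channel, low for Scd2, Hsd17b7 and Sqle and high for Mvk and Srebf2; the lines of Insig1 cross.

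Among the 9 fatty acid enzymes, 6 were higher, with a median of 0.72. The largest difference of the module was that of Scd2, a desaturase that makes monounsaturated fatty acids, with ratios of 3.03, 1.46, 1.92 and 1.94. Its level was 16.88 to 16.97 in the RapCA channel and 13.91 to 15.42 in the vector channel, and no spot was marked as saturated. The mean was 2.09 ± 0.67, a fold of 4.25 (adjusted p = 0.000438). Scd1, its close relative, had 1.79, 0.98, 1.12 and 1.21 (mean 1.27 ± 0.36, fold 2.42, adjusted p = 0.000498). Each has 1 probe, and how far a probe also reads the other desaturase is not known here. In both genes replicate 1 was highest and the levels did not overlap.

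The desaturases of polyunsaturated fatty acids were higher by similar amounts. Fads1 had ratios of 1.54, 0.91, 0.90 and 1.05 (mean 1.10 ± 0.30, fold 2.14, adjusted p = 0.000626). Fads2 had 0.53, 1.19, 1.38 and 1.40 (mean 1.12 ± 0.41, fold 2.18, adjusted p = 0.00127). Replicate 1 was thus highest for Fads1 and lowest for Fads2, which take part in the same route. Acly, which releases acetyl-CoA from citrate in the cytosol, had 0.86, 0.64, 0.60 and 0.77 (mean 0.72 ± 0.12, fold 1.64, adjusted p = 0.00110). The levels of the channels did not overlap for Fads1, Fads2 or Acly.

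The enzymes that build the saturated chain gave weaker or divided readings. Acaca, the carboxylase that commits acetyl-CoA to fatty acids, had ratios of 0.58, -0.07, 0.33 and 0.03 on its brightest probe (mean 0.22, interval -0.09 to 0.53, adjusted p = 0.212). None of its 4 probes was called, with means from -0.02 to 0.22. Fasn, the synthase that assembles palmitate, had -0.09, -0.13, -0.15 and -0.03 on its brightest probe (mean -0.10, interval -0.32 to 0.12, adjusted p = 0.416). Its dimmer probe had 0.32, 0.73, 0.78 and 1.01 and was called higher (mean 0.71 ± 0.29, adjusted p = 0.00389), although its levels overlapped. The Fasn probes therefore give no common direction: with median centring the brightest was called lower, at -0.75, and with the mean of both probes Fasn was called higher, at 0.31.

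Elovl6, which elongates palmitate, had ratios of 1.001, 0.23, 0.59 and 0.07 and passed narrowly (mean 0.47 ± 0.41, adjusted p = 0.0469). Its levels overlapped, and the call was lost without replicate 1, 2 or 3. In all, the Elovl6 call was lost in 8 of 16 other settings, among them the scanner software's ratios and no filter on dim probes. Elovl5, which elongates polyunsaturated chains, had 0.74, 0.13, 0.09 and 0.27 on its brightest probe, which was not called (mean 0.31, interval -0.01 to 0.62, adjusted p = 0.0944). A second Elovl5 probe was called at 0.48 ± 0.40 (adjusted p = 0.0403) but not with median centring, at 0.32. Both elongases had their largest ratio on replicate 1.

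Of the 5 SREBP regulators and Stard4, 4 were higher (2 without replicate 2 or 4), with a median of 0.54. Srebf1, the gene of the SREBP that favours fatty acid synthesis, had ratios of 0.79, 1.01, 1.19 and 1.32. Its levels were 14.96 to 15.13 in the RapCA channel and 13.80 to 14.27 in the vector channel. The mean was 1.08 ± 0.23, a fold of 2.11 (adjusted p = 0.000402). Srebf2, whose product favours sterol synthesis, had 0.68, 1.45, 1.39 and 1.58 on its brightest probe (mean 1.27 ± 0.41, fold 2.42, adjusted p = 0.000716), with levels that did not overlap. The other Srebf2 probe was not called (0.27 ± 0.30, adjusted p = 0.135).

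Scap, the escort of the SREBPs, had ratios of 0.13, 0.61, 0.55 and 0.90 (mean 0.55 ± 0.31, adjusted p = 0.0141), with levels that overlapped. The Insig genes, whose products retain Scap, differed from each other. Insig2 had 1.16, 0.30, 0.25 and 0.44 (mean 0.54 ± 0.42, adjusted p = 0.0301) on its brightest probe and 0.79 ± 0.16 (adjusted p = 0.000897) on the other. The calls of Scap and of the brightest Insig2 probe were lost without replicate 2 or 4, and that of Scap also without replicate 3. In all, the call of the brightest Insig2 probe was lost in 7 of 16 other settings. With median centring neither Insig2 probe was called, at 0.34 and 0.65. Insig1, a known target of the SREBPs, was not called, with -0.32, -0.11, 0.27 and -0.18 (mean -0.08, interval -0.37 to 0.21, adjusted p = 0.603) and 0.015 on its second probe. Stard4, a carrier of cholesterol between membranes, had 0.69, 0.15, 0.46 and -0.29 (mean 0.25, interval -0.14 to 0.64, adjusted p = 0.248), and none of its 3 probes was called.

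Set against each other per array, the branches differed little. The median of the sterol enzymes minus that of the fatty acid enzymes was -0.16, 0.15, 0.31 and 0.10 on replicates 1 to 4, a mean of 0.10 ± 0.19 (SD, n = 4), with a change of sign between arrays and a mean of -0.08 with median centring. With the mean of a gene's probes, the median sterol enzyme stood at 0.68 and the median fatty acid enzyme at 0.72. From the brightest probes these were 1.00 and 0.72, so the order of the branches depended on the choice of probe. Against the SREBP regulators and Stard4 the sterol enzymes stood 0.01, 0.33, 0.41 and 0.20 higher (mean 0.24 ± 0.17). Within the sterol enzymes, the mevalonate branch minus the squalene branch gave -0.28, 0.43, 0.50 and 0.54 (mean 0.30 ± 0.39), below 0 on replicate 1 and above it on the others. These differences are a description and carry no test.

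Replicate 1 and the vector channel carried most of the spread between arrays, in the members as in all genes. Replicate 1 gave the highest of the 4 ratios for 17 members and the lowest for 14, shares of 53.1% and 43.8%, against 42.2% and 44% of all genes. Among the fatty acid enzymes it was highest for 7 of 9, and among the sterol enzymes for 8 of 17. The median SD of a member's level over arrays was 0.12 in the RapCA channel and 0.37 in the vector channel, against 0.13 and 0.29 for all genes. The spread was wider in the vector channel in 30 of 32 members (93.8%) and in 84.2% of all genes. In that channel replicate 1 was the array farthest out for 81.2% of members and 86.5% of all genes. Without replicate 1, 23 members and 37.1% of all genes were called higher, and the median member stood at 0.68.

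**Figure D3:**
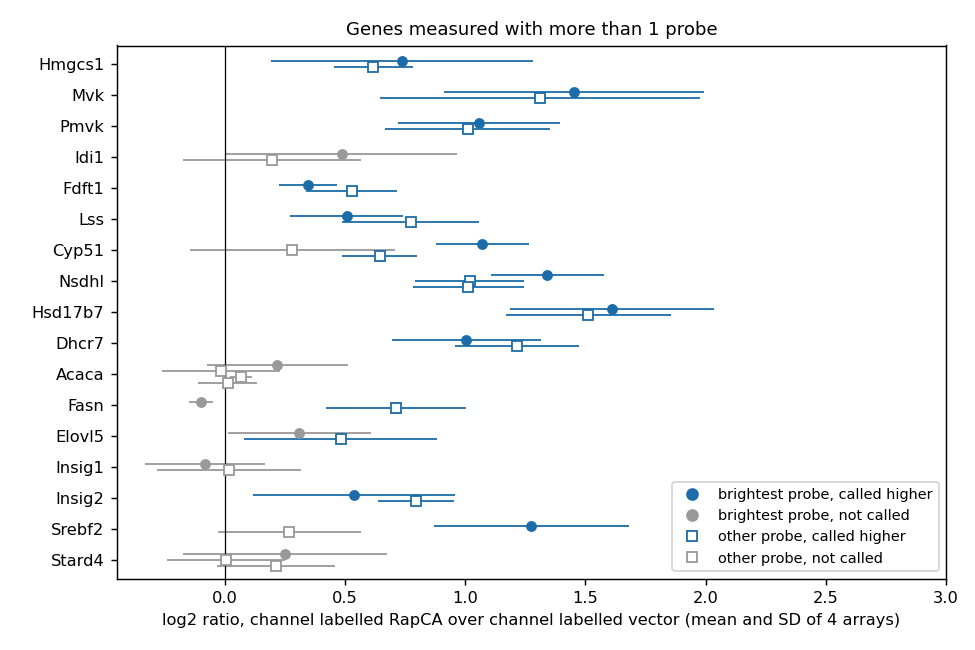
Mean log2 ratio and SD of 4 arrays (horizontal axis) for each probe of the 17 genes with more than 1 probe; filled circles mark the brightest probe of a gene, open squares the others, and blue marks a call at a limma adjusted p under 0.05. In 9 genes all probes are called higher and in 4 none is, while the probes of Cyp51, Fasn, Elovl5 and Srebf2 disagree. The same counts were not made over all genes.

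Counted by probe, 35 of the 54 member probes (against 26.4% of all 23497 probes) were higher, 0 were lower (against 23.2%) in the limma test, and 19 were not called. Of the member probes, 53 were above background on all arrays in both channels. Among the 17 members with several probes, 9 had all of them called higher and 4, namely Idi1, Acaca, Insig1 and Stard4, had none. The probes were divided for Cyp51, Fasn, Elovl5 and Srebf2. Agreement between probes of a gene was not counted over all genes, so these counts have no background to be read against. The remaining 15 members rest on 1 probe each.

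**Figure D4:**
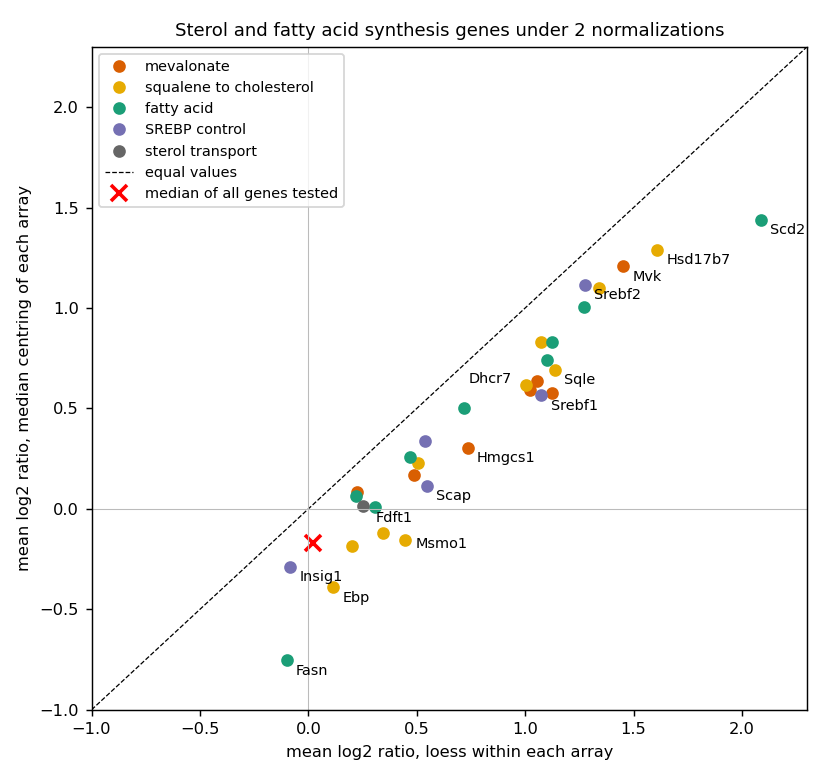
Mean log2 ratio of each of the 32 genes with loess within each array (horizontal axis) and with median centring of each array (vertical axis), coloured by role; the dashed line marks equal values and the red cross the median of all genes tested. Every gene lies below the dashed line, Fasn farthest below at -0.10 against -0.75, and Fdft1, Msmo1, Ebp and Sc5d change sign.

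Further genes of these pathways, 51 in a second list that does not share a gene with the module, held calls in both directions. A probe was found for 50 of them and 44 were tested, of which 16 (36.4%) were higher and 11 lower, with a median of 0.26. All genes tested were higher in 28.9% and lower in 24.9%, so these shares lie near the background, and the groups within the list are to be read against it too. With median centring 8 were higher and 7 lower. Calls lost there include those given below for Aacs, Slc25a1, Me1, Elovl1, Lpin1, Acsl3, Pcyt2, Lbr, Ggps1, Soat1, Elovl4 and Acsl1, with Elovl1 at 0.04 and Pcyt2 at 0.11. The lower genes numbered 5 without replicate 2 and 7 without replicate 3 or 4. Of all genes, 17.5%, 17.1% and 19.8% were lower without replicates 2, 3 and 4. The largest difference was that of Tm7sf2, a sterol reductase of the cholesterol route, with ratios of 1.51, 1.97, 2.75 and 3.17 (mean 2.35 ± 0.75, fold 5.10, adjusted p = 0.000402). Lbr, a protein of the inner nuclear membrane that carries the same reductase activity, was lower, with 0.12, -0.79, -0.97 and -1.27 (mean -0.73 ± 0.60, adjusted p = 0.0270). The Lbr call was also lost with no filter on dim probes and without replicate 2, 3 or 4, while its ratio stayed below 0 on replicates 2 to 4. Aacs, which makes acetoacetyl-CoA from acetoacetate, was higher at 0.94 ± 0.23.

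The other lower genes among 9 sterol and isoprenoid genes were Tmem97, a sterol-responsive membrane protein, at -0.73 ± 0.31, Ggps1, which extends farnesyl to geranylgeranyl diphosphate, at -0.56 ± 0.22, and Coq2 of ubiquinone synthesis at -0.54 ± 0.07. In SREBP processing, 1 of 4 tested genes was higher. This was Mbtps1, the protease that makes the first cut in SREBPs, with ratios of 1.68, 1.16, 1.34 and 1.35 (mean 1.38 ± 0.22, fold 2.61, adjusted p = 0.000133), although 1 of its 3 probes was not called at 0.36. Rnf139 and Ubxn8 were not called on their brightest probes, at 0.30 and 0.26, but 2 further Rnf139 probes were called higher, at 0.52 and 0.48.

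Among 8 genes of sterol outflow, storage and the LXR receptors, 3 were higher and 2 lower. Mylip, a ubiquitin ligase that lowers lipoprotein uptake, had ratios of 2.26, 1.78, 1.95 and 2.34 (mean 2.08 ± 0.26, fold 4.24, adjusted p = 4.29e-05), and its levels did not overlap. A second Mylip probe was also called higher but was smaller, at 1.05 ± 0.26. The LXR genes opposed each other, with Nr1h2 at 0.69 ± 0.31 and Nr1h3 at -0.47 ± 0.10. The size of the Nr1h3 difference depended on the background correction, at -1.23 with the scanner software's ratios, and its call was lost without replicate 2. Soat1, which esterifies cholesterol for storage, was lower at -0.49 ± 0.37 on its brightest probe, but 1 of its 3 probes was not called, at -0.11. That Soat1 call was lost in 7 of 16 other settings, among them no filter on dim probes and leaving out replicate 2, 3 or 4. Abca1, a cholesterol exporter, was not called at 0.08 ± 0.28, and Abcg1 was above background on no array.

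Of 12 genes of fatty acid supply and elongation, 5 were higher and 3 lower. Acss2, which makes acetyl-CoA from acetate, had ratios of 1.78, 1.87, 2.31 and 2.62 (mean 2.14 ± 0.39, fold 4.42, adjusted p = 7.82e-05) with a second called probe at 1.54. Tecr, the reductase that ends each elongation cycle, stood at 1.14 ± 0.27, the citrate carrier Slc25a1 at 0.85 ± 0.40, the malic enzyme Me1 at 0.70 ± 0.37 and the elongase Elovl1 at 0.62 ± 0.21. The elongases Elovl7 and Elovl4 were lower, at -1.10 ± 0.25 and -0.37 ± 0.16, and Elovl7 stood at -2.08 with the scanner software's ratios. Elovl3, the remaining lower gene, exceeded background in the RapCA channel on 1 array of 4, so the size of its difference is not settled. Its ratio was -0.36 here, -0.58 with a normexp offset of 16 and -1.83 with the scanner software's ratios, and it was not tested when both channels had to exceed background.

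In the list of fatty acid activation and glycerolipid entry, 4 of 11 genes were higher and 2 lower. Pcyt1a, a regulatory enzyme of phosphatidylcholine synthesis, had ratios of 1.79, 1.19, 1.30 and 1.33 (mean 1.40 ± 0.27, fold 2.65, adjusted p = 0.000173). Lpin1, a phosphatidate phosphatase, stood at 1.09 ± 0.21, the acyl-CoA synthetase Acsl3 at 0.93 ± 0.31, and Pcyt2 of phosphatidylethanolamine synthesis at 0.61 ± 0.24. Other acyl-CoA synthetases were lower, with Acsl4, which prefers arachidonate, at -0.75, -0.94, -0.92 and -2.06 (mean -1.17 ± 0.60, adjusted p = 0.00380) and Acsl1 at -0.61 ± 0.31. A second Acsl4 probe was also called lower, at -0.51 ± 0.34.

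**Figure D5:**
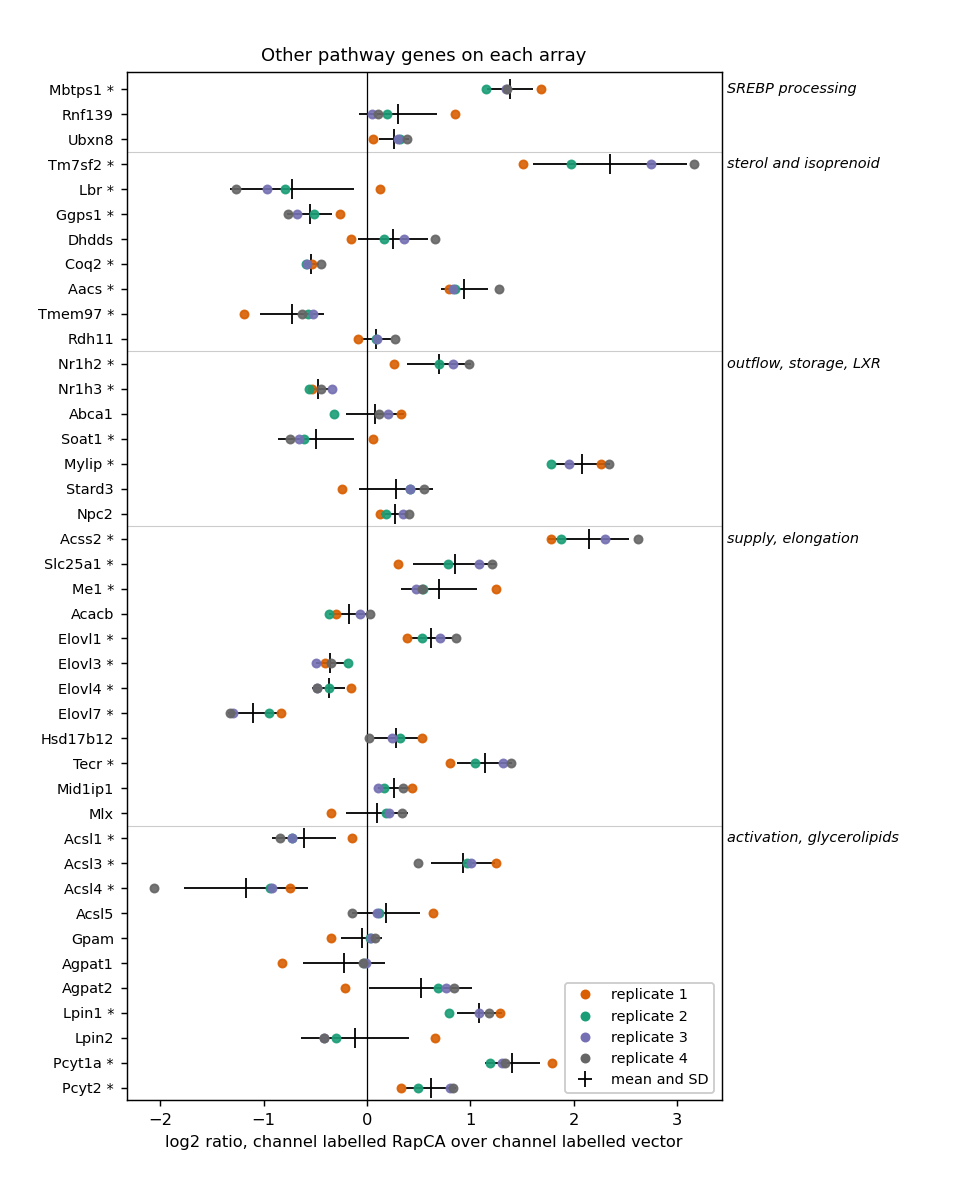
Log2 ratio of the RapCA channel over the vector channel (horizontal axis) for tested genes of the second list that are reported here, by role, with 1 point per array, the mean and SD of 4 arrays in black and an asterisk for a call at a limma adjusted p under 0.05. Called genes lie on both sides of 0, from Acsl4 at -1.17 to Tm7sf2 at 2.35.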

How the data were processed

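All 4 two-colour arrays lay on a single Agilent slide, per the file headers, which leaves no slide effect to test. Feature Extraction read them; its version is 10.7.3.1 in the file headers but 10.9 in the submitters' processing notes. The deposited intensity values are median pixel signals of each spot and its local background, not normalized, per the file headers. The log10 ratios deposited in the scanner files and the series table are Cy5 over Cy3 after the software's background and dye correction, as the file headers record. Over 40929 probes the values of the series table lay within 5e-05 of the scanner ratios, which gives their scale and direction, and their column medians were 0.

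Background was corrected with normexp (offset 50), on median signals because the scanner files used here hold no mean spot signals, and loess, with control spots at weight 0, normalized the ratios of each array. Outlier spots were left out, no spot was saturated, and spots of a probe were averaged. A probe was kept when 1 channel or both exceeded background on all 4 arrays and at least 3 arrays measured it (23497 of 41174). Symbols came from a RefSeq table for 64.9% of probes. For each probe limma (lmFit, then eBayes) tested whether the mean ratio differed from 0, with Benjamini-Hochberg adjustment over all probes and calls under 0.05. A gene is read from its brightest probe, ± is the SD over arrays and intervals are 95%. The number of arrays limits the precision, and p-values measure the spread between these arrays. The fit was tested on simulated data. Since each array pairs both conditions, the replicate number pairs the channels by design.

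All members are named. Of the second list, the rule named the 8 largest called genes and called genes that oppose others of their role, and other called genes are given beside them. Some genes of that list entered the fit and the counts and are not reported here by name. The members, lists and tests were chosen with earlier results of these data known. The array files name build mm9, so no array coordinates were set beside the RefSeq promoters. Alternatives covered centring, offset, the software's ratios, the series table, array weights, filters, the treatment of outlier spots, variance models, channels fitted separately, each array left out and the mean of a gene's probes. Tools were R 4.3.3, limma 3.58.1, the package data.table (version 1.17.8), Python 3.11.15, pandas 2.3.3 and matplotlib 3.10.9.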

Additional observations from a re-analysis of the deposited data

Results flagged for a closer look

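For 7 genes and 1 difference between branches, 1 of the 4 arrays stood far from the other 3, with a gap to its neighbour above Dixon's 95% limit for the group's range. Of 70 values checked, chance alone gives such a gap in about 1 in 20. Replicate 1 stood apart for Sqle (mean 1.14), Tmem97 (-0.73), Soat1 (-0.49), Me1 (0.70), Acsl1 (-0.61) and the mevalonate enzymes minus the squalene to cholesterol enzymes (0.30). Replicate 4 stood apart for Aacs (0.94) and Acsl4 (-1.17). Sqle was the 1 member of the module among them.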

How the results depend on the processing

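Under the 16 other settings the count of members called higher ran from 11 to 28 and the count called lower was 0 except for 1 (Fasn) with median centring. With median centring 11 members were higher, 7 of the sterol enzymes, 2 of the fatty acid enzymes and 2 of the SREBP regulators, 8 further pathway genes were higher and 7 lower, and the median member was 0.42. The means of Fdft1, Msmo1, Ebp and Sc5d turned to -0.12, -0.16, -0.39 and -0.18; the cause was not tested. The shift of a gene from centring to loess had a median of 0.32 over members and 0.17 over all genes. Members were also brighter, with a median log2 brightness of 12.85 against 10.27 for all genes, and loess follows the intensity. The part of brightness in the larger shift was not tested. Fasn turned to 0.021 with the scanner software's ratios and with the series table, and to 0.31 with the mean of its probes. Insig1 turned to 0.11 with array quality weights, which weighted replicate 1 at 0.14 and replicate 3 at 4.62 and called 28 members and 40.9% of all genes higher, adding the members Acat2, Idi1, Msmo1, Ebp, Acaca and Stard4. With channels fitted separately, the array as replicate block gave 22 members higher and no replicate block gave 19. The fit with the block pairs the channels as the ratio does, so its calls could not differ from those of the first analysis.

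Leaving out 1 array gave 17 to 23 members higher (17 without replicate 3), 9 to 14 sterol enzymes, 5 to 6 fatty acid enzymes and 2 to 4 regulators (2 without replicate 2 or 4). Of the further pathway genes 5 to 12 were lower (5 without replicate 2, 7 without replicate 3 or 4) and 15 to 22 higher. The background moved as well, with 37.1%, 21.4%, 21.6% and 24% of all genes higher without replicates 1, 2, 3 and 4. The shares of all genes called lower were 34%, 17.5%, 17.1% and 19.8%. The sterol minus fatty acid median ran from 0.03 to 0.18 (-0.08 with median centring) and the median member from 0.68 to 0.80. With the mean of a gene's probes, the median sterol enzyme (0.68) also lay below the median fatty acid enzyme (0.72).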
